A study of Mus musculus with 26 samples.

Results

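Collagens are the triple-helical proteins that carry most of the load of the extracellular matrix, and each gene encodes 1 chain. The array held 82 probe sets annotated to a single collagen chain gene, and these gave 42 genes of the 18193 genes with a symbol of their own. Where a gene had several probe sets, the brightest on average across the 26 arrays was used. By family, 11 genes encoded fibrillar chains, 6 the type IV chains of basement membranes, 5 the type VI chains of beaded filaments, 9 fibril-associated chains, 2 multiplexins, 4 transmembrane chains, 3 short-chain collagens, 1 the anchoring fibril chain and 1 another chain. For 8 of the 42, no group mean reached the median level of all probe sets (5.20 log2 units). These are called dim here (Col11a2, Col24a1, Col4a4, Col6a5, Col19a1, Col13a1, Col8a2 and Col26a1), and the other 34 not dim. Col6a6 and Col28a1 were not analysed here.

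The arrays measured total RNA of the inguinal mammary gland of mice, taken as log2 intensities from the authors' table. At lactation day 9 there were 10 arrays of the Advanced Intercross Line (AIL), a line bred from CBA/CaH and QSi5 mice and sampled at generation 14, of which 5 carried the code AQ and 5 the code AC. What the codes stand for is not given in the labels. Lactation day 9 also had 3 QSi5 and 3 CBA/CaH arrays, and pregnancy day 12 had 5 QSi5 and 5 CBA/CaH arrays. Ages were not given, and AIL animals in pregnancy were not analysed here.

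In the mammary gland, fibroblasts make the fibrillar collagens I, III and V and the type VI collagens of the stroma. Type IV collagens form the sheet of the basement membrane under epithelium, around vessels and around each adipocyte, and type VII collagen anchors that sheet to the stroma. During pregnancy the ducts and alveoli grow into the fat pad, and by mid-lactation milk-filled alveoli occupy most of the gland. Whole-gland RNA averages over all of these cells. In no difference below can a change in a cell type's share be told apart from a change in its RNA per cell.

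The labelled tissue and stage were checked first. The 7 milk protein genes averaged 0.81 to 0.92 log2 units above their own mean over all arrays on each lactation array, against -2.17 to -0.81 on each pregnancy array. In all, 7 arrays stood apart from their groups by markers of another tissue or by the Gapdh control. They were the lactation AIL AC 1 (skeletal muscle markers), lactation QSi5 2 (B and plasma cell markers), pregnancy QSi5 3 and 5 (skeletal muscle), pregnancy QSi5 4 (a Gapdh 3' minus 5' value of 6.50, where the rest of the group lay at 1.20 to 1.74) and pregnancy CBA/CaH 3 and 5 (brown adipocyte markers). Results that these arrays decide are given with and without them. Nothing in the labels says how many litters, cages or days the animals came from, so the p-values measure the spread between these arrays.

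The stretches before the start sites of 5 collagen genes are shown, namely 2 fibrillar chains that both fell with stage, the neighbours Col4a5 and Col4a6, of which only Col4a5 was called, and Col7a1. Coordinates and sequences are those of RefSeq on GRCm38.p6, read 5′ to 3′ on the strand of the gene. Capitals mark 3 motifs known from many promoters, searched on both strands. They are the CCAAT box, the GC box in its form GGGCGG, and the TATA box in its form TATAAA. Matches were counted separately, and a CCAAT box and a GC box can share letters. Of the 42 genes, 33 had at least 1 start site in the RefSeq promoter table, 36 windows of 250 bases in all. The CCAAT box was found in 36.1% of these windows and in 33.8% of all 32851 windows of the table. The GC box was found in 58.3% and 32.7%, and the TATA box in 13.9% and 12.4%. The table of all windows also holds genes that make no protein, and a match is a run of letters, not a shown site. The fibrillar chains Col1a2 (chr6:4505368-4505617, plus strand) and Col3a1 (chr1:45311288-45311537, plus strand), which fell together, have unlike windows, the first with GC boxes and a CCAAT box and the second with a TATA box.
Col1a2: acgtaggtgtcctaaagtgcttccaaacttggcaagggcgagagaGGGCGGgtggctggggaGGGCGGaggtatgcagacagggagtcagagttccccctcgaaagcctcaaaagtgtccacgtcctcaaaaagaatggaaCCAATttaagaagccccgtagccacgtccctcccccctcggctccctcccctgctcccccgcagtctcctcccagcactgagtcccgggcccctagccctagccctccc
Col3a1: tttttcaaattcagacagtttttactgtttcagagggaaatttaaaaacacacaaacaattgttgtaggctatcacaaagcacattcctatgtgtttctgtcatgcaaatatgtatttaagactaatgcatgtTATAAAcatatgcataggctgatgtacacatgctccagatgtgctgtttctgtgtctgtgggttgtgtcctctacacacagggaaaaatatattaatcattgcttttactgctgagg
Col4a5 (chrX:141475169-141475369, plus strand, 201 bases) and Col4a6 (chrX:141474096-141474326, minus strand, 231 bases) run away from each other, and their start sites lie 1343 bases apart. Their windows are shown as far as the outermost start that RefSeq gives each gene, and the GC box counted for each lies wholly or partly beyond the part shown.
Col4a5: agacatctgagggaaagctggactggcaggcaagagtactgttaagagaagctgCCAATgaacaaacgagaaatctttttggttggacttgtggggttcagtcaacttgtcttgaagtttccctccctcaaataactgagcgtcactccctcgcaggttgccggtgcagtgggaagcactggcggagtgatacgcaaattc
Col4a6: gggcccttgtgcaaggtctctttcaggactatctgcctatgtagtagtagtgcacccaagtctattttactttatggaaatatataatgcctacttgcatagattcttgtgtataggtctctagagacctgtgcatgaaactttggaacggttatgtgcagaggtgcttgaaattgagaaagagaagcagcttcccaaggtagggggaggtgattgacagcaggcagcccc
The window of Col7a1, the anchoring fibril chain (chr9:108953336-108953585, plus strand), is shown as that of 1 of the 5 genes that fell with stage in both strains and were called higher in the AIL than neither parent.
Col7a1: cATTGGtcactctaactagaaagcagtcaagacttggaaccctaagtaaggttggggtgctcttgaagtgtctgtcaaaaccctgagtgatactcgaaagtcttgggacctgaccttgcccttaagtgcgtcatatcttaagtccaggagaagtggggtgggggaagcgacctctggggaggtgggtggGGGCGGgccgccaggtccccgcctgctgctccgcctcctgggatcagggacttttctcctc

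**Figure D1:**
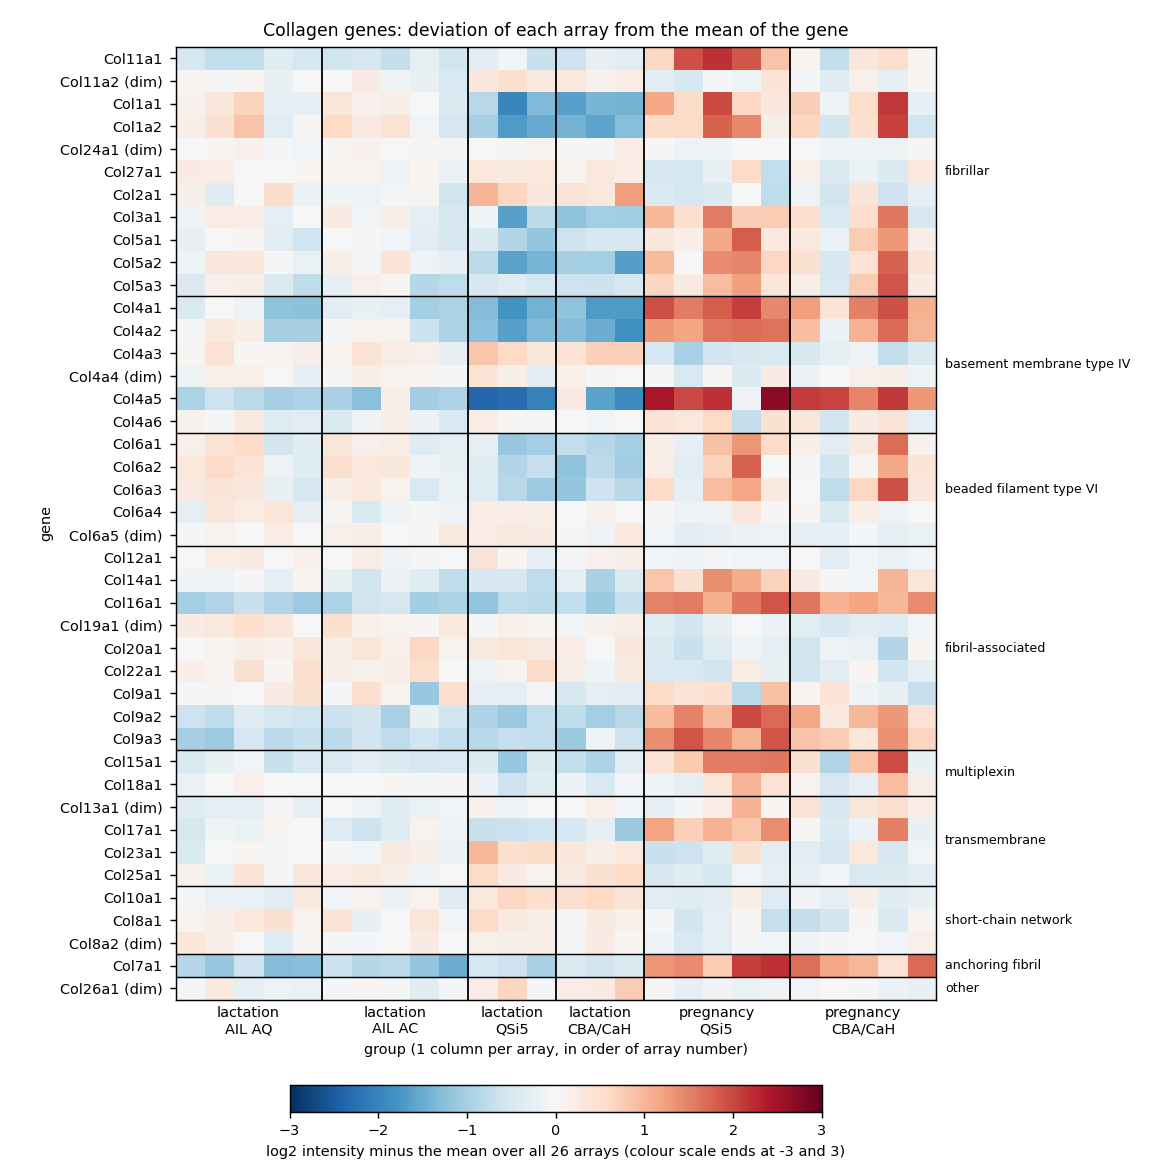
Each row is 1 collagen gene and each column 1 array, with colour giving log2 intensity minus the gene's mean over all 26 arrays; genes are ordered by family and arrays by group, lactation left of pregnancy. Col1a1, Col1a2, Col3a1, Col5a2, Col4a1 and Col4a2 are red on most pregnancy arrays, blue on the 6 parental lactation arrays and mostly paler on the 10 AIL arrays, while Col16a1, Col9a2, Col9a3 and Col7a1 are blue on nearly all lactation arrays.

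The first comparison asked how collagen chain transcripts differed between mid-pregnancy and lactation within each parental strain. By the probe set used for each gene, the largest falls at lactation were those of 3 type IV chains in both strains. Every gene called lower was among the 34 not dim, a label that Col9a2 reached through its pregnancy level alone. The counts are therefore given over all 42 genes. Over all 42 genes, 20 fell and 13 rose in QSi5, with limma and adjusted p under 0.05 over all 45037 probe sets. In CBA/CaH 17 fell and 8 rose. Over all 18193 genes 32.7% fell and 33% rose in QSi5, and 29.5% fell and 30.4% rose in CBA/CaH. The median difference of the 42 genes was -0.58 in QSi5 and -0.29 in CBA/CaH, against 0.04 and 0.05 for all genes. All 17 genes that fell in CBA/CaH also fell in QSi5, and all 8 that rose in CBA/CaH also rose in QSi5. The share of all genes called alike in both strains is not given, so this overlap is not read as a result about collagens. Both comparisons use the same model but separate arrays. The genes called in QSi5 had 29 other probe sets, of which 15 were called in the same direction and 1 in the opposite one. Those called in CBA/CaH had 23, of which only 7 were called in the same direction and 2 in the opposite one.

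The type I chains form the common thick fibril of the stroma. Col1a1 (chr11:94936224-94953042) had 7.63, 6.51 and 7.13 log2 units on the lactation QSi5 arrays, against 9.62, 9.01, 10.43, 9.07 and 8.79 in pregnant QSi5. CBA/CaH glands had 6.83, 7.06 and 7.03 at lactation, against 9.19, 8.33, 9.00, 10.59 and 8.22 in pregnancy. The stages did not overlap in either strain. Col1a1 was 4.90-fold lower in QSi5 (-2.29, SE 0.46, adjusted p = 0.000641) and 4.27-fold lower in CBA/CaH (-2.09, SE 0.46, adjusted p = 0.0016). Col1a2, its partner chain, had 8.86, 8.14 and 8.33 in lactating QSi5, against 10.40, 10.41, 11.61, 11.29 and 10.03 in pregnant QSi5. In CBA/CaH its values were 8.42, 8.27 and 8.58 at lactation, against 10.48, 9.30, 10.34, 11.91 and 9.25 in pregnancy. It fell in QSi5 (-2.30, SE 0.49, adjusted p = 0.00099) and in CBA/CaH (-1.83, SE 0.49, adjusted p = 0.0058), again with no overlap. Another probe set of Col1a2, of low level (mean 3.27), was called in the opposite direction in CBA/CaH (0.45, adjusted p = 0.0053), while the remaining one moved with the one used.

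Type III collagen makes the fine fibrils that accompany type I. Col3a1 had 11.58, 10.08 and 10.93 in lactating QSi5 glands, against 12.71, 12.20, 13.27, 12.45 and 12.48 in pregnant ones. It had 10.51, 10.70 and 10.67 in lactating CBA/CaH glands, against 12.22, 11.26, 12.25, 13.29 and 11.23 in pregnant ones. All lactation values lay below all pregnancy values of their strain, with differences of -1.76 in QSi5 (SE 0.41, adjusted p = 0.0019) and -1.42 in CBA/CaH (SE 0.41, adjusted p = 0.0091). The QSi5 call was lost when the arrays of foreign markers or high Gapdh value were left out (-1.20), and the CBA/CaH calls of Col1a2 and Col3a1 were lost after quantile normalization or cyclic loess. A second, less bright probe set of Col3a1 gave larger falls (-3.37 in QSi5 and -2.72 in CBA/CaH). Type V chains join type I fibrils and limit their width. Col5a2, which lies 24624 bases from Col3a1 on chromosome 1, had 7.09, 6.31 and 6.52 in lactating QSi5, against 8.86, 7.91, 9.33, 9.38 and 8.53 in pregnant QSi5. Its CBA/CaH values were 6.91, 6.90 and 6.26 at lactation, against 8.38, 7.40, 8.35, 9.67 and 8.31 in pregnancy. It fell in both strains without overlap (-2.16 in QSi5 and -1.73 in CBA/CaH, SE 0.41 in both, adjusted p = 0.000405 in QSi5 and 0.0027 in CBA/CaH, limma). Col5a1, the chain that pairs with it, had 6.75, 6.31 and 6.03 in lactating QSi5, against 7.52, 7.37, 8.31, 9.01 and 7.49 in pregnant QSi5. Lactating CBA/CaH glands had 6.57, 6.70 and 6.71, against 7.49, 6.98, 7.94, 8.49 and 7.37 in pregnant ones. The stages did not overlap, and the differences were -1.58 in QSi5 (adjusted p = 0.0017) and -0.99 in CBA/CaH (adjusted p = 0.0305). The CBA/CaH call of Col5a1 was lost in 7 of 21 alternative settings. Col5a3 fell too (-1.17, adjusted p = 0.0128, and -1.11, adjusted p = 0.019).

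Not every fibrillar chain fell. Col11a1, a minor chain of thin fibrils, had 4.40, 4.67 and 4.07 in lactating QSi5, against 5.36, 6.68, 6.93, 6.61 and 5.61 in pregnant QSi5, and fell by 1.86 (SE 0.34, adjusted p = 0.000306). CBA/CaH glands had 4.13, 4.50 and 4.42 at lactation, against 4.85, 4.00, 5.09, 5.27 and 4.81 in pregnancy, a difference of -0.45 that did not pass the test (95% interval -1.18 to 0.27). Col2a1, the chain of cartilage fibrils, had 6.68, 6.30 and 6.0 in lactating QSi5, against 5.25, 5.14, 5.24, 5.64 and 4.91 in pregnant QSi5. In CBA/CaH its values were 6.05, 5.97 and 6.90 at lactation, against 5.50, 5.10, 6.05, 5.05 and 5.36 in pregnancy. Its stages overlapped in CBA/CaH and not in QSi5. It rose by 1.09 (SE 0.25, adjusted p = 0.002) in QSi5 and by 0.90 (SE 0.25, adjusted p = 0.0084) in CBA/CaH. Leaving out array 3 of lactating CBA/CaH ended that call (0.60, adjusted p = 0.0728). Col27a1 and the dim Col11a2 rose in QSi5 by 0.59 and 0.48 (adjusted p = 0.0492 and 0.0272), calls lost with equal array medians (0.37 and 0.26). Their differences in CBA/CaH were 0.33 and 0.32, and neither was called. The dim Col24a1 was not called in either strain (0.09 and 0.14).

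**Figure D2:**
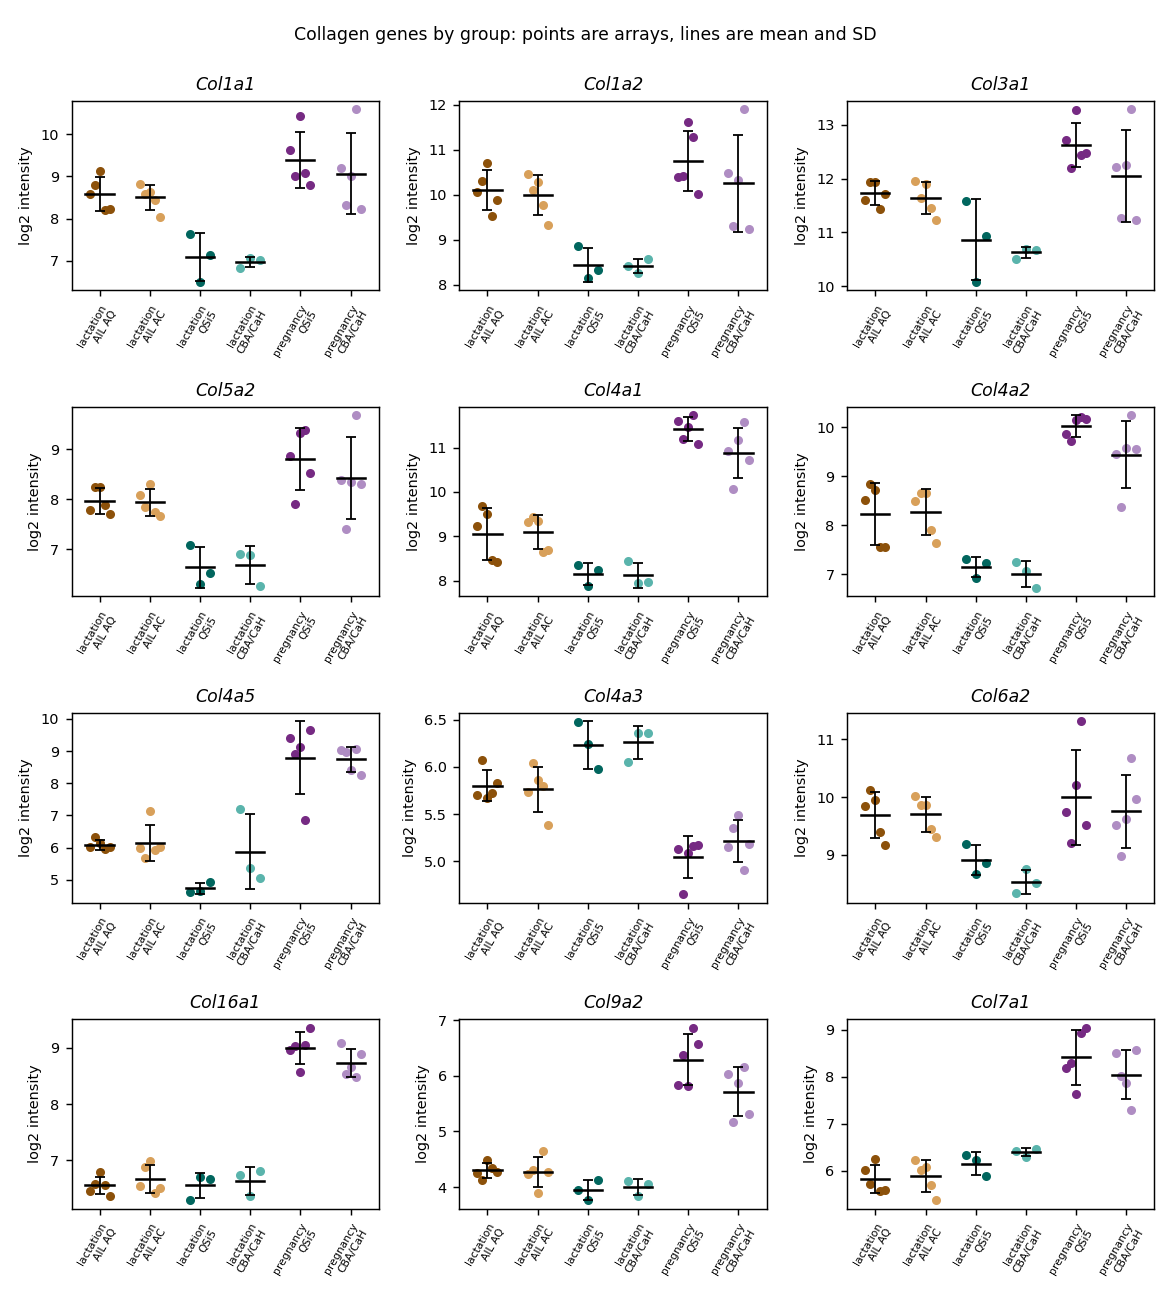
Log2 intensity of 12 collagen genes by group; points are arrays, and the lines give each group's mean and SD, with lactation groups left of pregnancy groups. Col1a1, Col1a2, Col3a1, Col5a2, Col4a1, Col4a2 and Col6a2 were low in both parental lactation groups and higher in the AIL, Col16a1, Col9a2 and Col7a1 were low in every lactation group, and Col4a3 was lowest in pregnancy.

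By the probe sets used, the chains of the common basement membrane network fell by more than any fibrillar chain in each strain. The less bright probe set of Col3a1 given above fell by more than Col4a2 in both strains, and by more than Col4a1 in QSi5. Col4a1 (chr8:11198423-11312889) and Col4a2 (chr8:11312805-11449287) are transcribed away from each other, and RefSeq places their start sites 21 bases past each other, so that their start regions overlap. Col4a1 had 8.36, 7.88 and 8.23 in lactating QSi5 glands, against 11.59, 11.20, 11.47, 11.73 and 11.09 in pregnant ones. In CBA/CaH glands it had 8.44, 7.95 and 7.97 at lactation, against 10.92, 10.06, 11.16, 11.58 and 10.72 in pregnancy. This was 9.58-fold lower in QSi5 (-3.26, SE 0.26, adjusted p = 1.6e-07) and 6.81-fold lower in CBA/CaH (-2.77, SE 0.26, adjusted p = 1.25e-06). Col4a2 had 7.30, 6.91 and 7.22 in lactating QSi5, against 9.86, 9.73, 10.16, 10.22 and 10.17 in pregnant QSi5. It had 7.24, 7.05 and 6.72 in lactating CBA/CaH, against 9.46, 8.36, 9.58, 10.24 and 9.57 in pregnant CBA/CaH. It fell in QSi5 (-2.88, SE 0.29, adjusted p = 1.4e-06) and in CBA/CaH (-2.44, SE 0.29, adjusted p = 1.01e-05). The stages stood more than 1 log2 unit apart on every array for both genes. Both calls held in each of 21 alternative settings.

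The second divergent pair differed in its calls. Col4a5 encodes a chain of the epithelial and glomerular basement membrane network. It had 4.61, 4.66 and 4.93 in lactating QSi5, against 9.41, 8.92, 9.14, 6.85 and 9.66 in pregnant QSi5, where the low value is that of the array with the high Gapdh value. Values in CBA/CaH were 7.20, 5.36 and 5.04 at lactation, against 9.04, 8.97, 8.41, 9.07 and 8.25 in pregnancy. Pregnancy and lactation did not overlap in either strain. It fell in QSi5 (-4.06, 16.7-fold, SE 0.54, adjusted p = 2.03e-05) and in CBA/CaH (-2.88, 7.36-fold, SE 0.54, adjusted p = 0.000511). Col4a6 runs away from Col4a5, with start sites 1343 bases apart. Col4a6 averaged 6.29 ± 0.15 (SD, n = 3) at lactation and 6.44 ± 0.53 (SD, n = 5) in pregnancy in QSi5, and 6.21 ± 0.05 against 6.26 ± 0.43 in CBA/CaH. Its differences were -0.15 (95% interval -0.72 to 0.42) and -0.05 (95% interval -0.62 to 0.52), and neither passed the test. Whether Col4a5 differed more than Col4a6 was not tested.

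The third pair again differed in its calls. Col4a3, a chain known from specialised basement membranes, had 6.48, 6.24 and 5.98 in lactating QSi5, against 5.13, 4.66, 5.09, 5.17 and 5.18 in pregnant QSi5. Values in CBA/CaH were 6.05, 6.36 and 6.36 at lactation, against 5.15, 5.35, 5.49, 4.91 and 5.18 in pregnancy. Lactation values were above all pregnancy values in both strains, by 1.19 (SE 0.16, adjusted p = 2.55e-05) in QSi5 and by 1.04 (SE 0.16, adjusted p = 0.000111) in CBA/CaH. Its neighbour Col4a4 was dim and differed by 0.20 in QSi5 and 0.04 in CBA/CaH, without a call. Of 6 type IV genes, then, 3 fell, 1 rose and 2 were not called, in each strain.

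Type VI collagen forms beaded filaments around cells and is known as a major matrix product of adipose stroma. Col6a1 and Col6a2 on chromosome 10 and Col6a3 on chromosome 1, the 3 chains of the classical trimer, fell in both strains. Col6a1 had 7.85, 6.97 and 7.08 in lactating QSi5, against 8.31, 7.87, 8.99, 9.42 and 8.67 in pregnant QSi5. It had 7.38, 7.24 and 7.10 in lactating CBA/CaH, against 8.28, 7.76, 8.38, 9.78 and 8.23 in pregnant CBA/CaH. The stages did not overlap. Col6a2 had 9.19, 8.67 and 8.86 in lactating QSi5, against 9.74, 9.20, 10.21, 11.31 and 9.53 in pregnant QSi5, and 8.34, 8.75 and 8.51 in lactating CBA/CaH, against 9.51, 8.99, 9.62, 10.68 and 9.96 in pregnant CBA/CaH. Col6a3 had 7.36, 6.91 and 6.66 in lactating QSi5, against 8.32, 7.46, 8.68, 8.92 and 8.04 in pregnant QSi5, and 6.59, 7.12 and 6.92 in lactating CBA/CaH, against 7.74, 6.98, 8.37, 9.69 and 8.09 in pregnant CBA/CaH. All stages were apart except those of Col6a3 in CBA/CaH, where pregnancy array 2 lay below a lactation array. The differences of Col6a1, Col6a2 and Col6a3 were -1.35, -1.09 and -1.30 in QSi5 (adjusted p = 0.008, 0.0287 and 0.0204) and -1.24, -1.22 and -1.30 in CBA/CaH (adjusted p = 0.0147, 0.0184 and 0.0238). All 3 lost their calls in both strains after quantile normalization or cyclic loess. Leaving out the arrays of foreign markers or high Gapdh value gave -0.62, -0.44 and -0.88 in QSi5, none of them called, and -1.26 for Col6a3 in CBA/CaH, also not called. Col6a4 was not called in either strain, at 0.20 and 0.11. The dim Col6a5 rose by 0.46 (adjusted p = 0.0029) and 0.30 (adjusted p = 0.0371), calls lost with equal array medians (0.23 and 0.12).

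Among the 9 fibril-associated chains, which decorate fibril surfaces, 4 fell and 2 rose in each strain. Col16a1 (chr4:130047817-130099277) had 6.29, 6.70 and 6.67 in lactating QSi5, against 8.97, 9.03, 8.57, 9.06 and 9.36 in pregnant QSi5. It had 6.74, 6.36 and 6.81 in lactating CBA/CaH, against 9.08, 8.53, 8.67, 8.47 and 8.88 in pregnant CBA/CaH. The stages were far apart, and it fell in QSi5 (-2.44, SE 0.18, adjusted p = 8.09e-08) and CBA/CaH (-2.09, SE 0.18, adjusted p = 5.63e-07), with the lowest adjusted p of any collagen gene in each strain. Col9a2, a chain of the type IX collagen of cartilage and eye, had 3.94, 3.77 and 4.13 in lactating QSi5, against 5.83, 6.37, 5.81, 6.87 and 6.56 in pregnant QSi5. Lactating CBA/CaH had 4.11, 3.85 and 4.05, against 6.03, 5.18, 5.88, 6.17 and 5.32 in pregnant CBA/CaH. Stages did not overlap, and the differences were -2.34 and -1.71 for Col9a2 (adjusted p = 3.15e-06 and 7.78e-05, limma) and -2.28 and -1.42 for its partner Col9a3 (adjusted p = 2.79e-06 and 0.000269). Col9a1, the other chain of that trimer, was not called (-0.49 and -0.24), and its probe set read between 9.33 and 11.36 on all 26 arrays.

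Col14a1, a chain that sits between neighbouring fibrils, had 5.83, 5.83 and 5.56 in lactating QSi5, against 7.14, 6.76, 7.70, 7.42 and 7.01 in pregnant QSi5, and fell by 1.47 (adjusted p = 0.000156). In CBA/CaH it had 6.04, 5.33 and 5.89 at lactation, against 6.57, 6.35, 6.23, 7.33 and 6.69 in pregnancy, and fell by 0.88 (adjusted p = 0.0081). Stages did not overlap in either strain. Another probe set of Col14a1, of low level (mean 4.10), was called in the opposite direction in both strains (0.53 in QSi5 and 0.64 in CBA/CaH). Col12a1, its relative, had 6.54, 6.22 and 5.86 in lactating QSi5, against 6.08, 6.02, 6.09, 6.08 and 6.07 in pregnant QSi5, and 6.12, 6.28 and 6.32 in lactating CBA/CaH, against 6.15, 5.83, 6.08, 5.95 and 6.07 in pregnant CBA/CaH. The stages overlapped and neither difference was called (0.14 and 0.22). The probe set of Col12a1 with the largest variance gave a fall of 0.72 in QSi5 (adjusted p = 0.0032) and a difference of 0.04 in CBA/CaH. Col20a1 had 6.03, 6.10 and 6.0 in lactating QSi5, against 5.30, 5.08, 5.36, 5.61 and 5.46 in pregnant QSi5, and 5.96, 5.76 and 6.09 in lactating CBA/CaH, against 5.15, 5.58, 5.53, 4.86 and 5.80 in pregnant CBA/CaH. It was apart in QSi5 and overlapped in CBA/CaH, and rose by 0.68 (adjusted p = 0.0051) and 0.55 (adjusted p = 0.0201). The dim Col19a1 was called higher on the deposited scale only, by 0.33 and 0.40 (adjusted p = 0.0462 and 0.0201), against 0.11 and 0.23 with equal array medians and -0.08 and 0.04 after cyclic loess, none of them called. Col22a1 was not called, at 0.47 and 0.44.

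The chains of the border between basement membrane, epithelium and stroma came next. Col7a1 had 6.33, 6.24 and 5.88 in lactating QSi5, against 8.18, 8.28, 7.62, 8.94 and 9.04 in pregnant QSi5. It had 6.42, 6.30 and 6.46 in lactating CBA/CaH, against 8.50, 8.01, 7.86, 7.29 and 8.57 in pregnant CBA/CaH. It fell in both strains without overlap (-2.26 in QSi5, SE 0.31, adjusted p = 2.43e-05, and -1.65 in CBA/CaH, SE 0.31, adjusted p = 0.000475). Col17a1, a membrane-bound chain of the hemidesmosome of basal epithelial cells, had 4.99, 5.00 and 5.05 in lactating QSi5, against 6.84, 6.36, 6.68, 6.48 and 7.04 in pregnant QSi5, and fell by 1.67 (adjusted p = 0.000638). In CBA/CaH it had 5.14, 5.39 and 4.53 at lactation, against 5.69, 5.24, 5.48, 7.16 and 5.43 in pregnancy, a difference of -0.78 that was not called (adjusted p = 0.0624). Col15a1, a multiplexin of vascular and muscle basement membranes, had 6.59, 5.90 and 6.61 in lactating QSi5, against 7.47, 7.81, 8.57, 8.56 and 8.60 in pregnant QSi5. Values were 6.29, 6.11 and 6.68 in lactating CBA/CaH, against 7.48, 6.14, 7.89, 8.98 and 6.82 in pregnant CBA/CaH, where the stages overlapped. It fell in QSi5 (-1.84, adjusted p = 0.0037), a call lost when the arrays of foreign markers or high Gapdh value were left out (-1.04), and was not called in CBA/CaH (-1.10, adjusted p = 0.0595). Col18a1, the multiplexin whose end fragment is endostatin, had 7.66, 7.19 and 7.46 in lactating QSi5, against 7.70, 7.55, 8.19, 8.85 and 8.25 in pregnant QSi5, and 7.64, 7.38 and 7.73 in lactating CBA/CaH, against 7.92, 7.33, 7.58, 8.75 and 7.99 in pregnant CBA/CaH. It overlapped in both strains and was not called with this probe set (-0.67 and -0.33). A less bright probe set of Col18a1 fell (-1.13 in QSi5, adjusted p = 0.000558, and -1.39 in CBA/CaH, adjusted p = 0.000136).

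The remaining members that rose belonged to the transmembrane, short-chain and other families. Col25a1, a membrane-bound chain known from neurons, had 6.81, 6.49 and 6.33 in lactating QSi5, against 5.73, 5.87, 5.72, 6.15 and 5.94 in pregnant QSi5, and 6.50, 6.68 and 6.82 in lactating CBA/CaH, against 5.93, 6.14, 5.79, 5.82 and 5.89 in pregnant CBA/CaH. It rose without overlap by 0.66 (adjusted p = 0.000927) in QSi5 and 0.75 (adjusted p = 0.000454) in CBA/CaH. Col10a1, a chain of hypertrophic cartilage, had 5.10, 5.41 and 5.28 in lactating QSi5, against 4.45, 4.40, 4.43, 4.98 and 4.41 in pregnant QSi5, and 5.29, 5.39 and 5.17 in lactating CBA/CaH, against 4.68, 4.51, 4.96, 4.43 and 4.56 in pregnant CBA/CaH. It rose without overlap by 0.73 (adjusted p = 0.000961) and 0.66 (adjusted p = 0.0026). The dim Col26a1 rose by 0.39 and 0.50 (adjusted p = 0.0442 and 0.0158). Col23a1, a membrane-bound chain, had 5.70, 5.18 and 5.25 in lactating QSi5, against 4.03, 4.09, 4.36, 5.17 and 4.36 in pregnant QSi5. It rose in QSi5 by 0.97 (adjusted p = 0.0027), as did Col8a1 by 0.67 (adjusted p = 0.0111) and the dim Col8a2 by 0.37 (adjusted p = 0.0131), of which the calls of Col8a1 (0.45) and Col8a2 (0.15) were lost with equal array medians. The same 3 genes differed by 0.50, 0.46 and 0.11 in CBA/CaH and were not called there. The dim Col13a1 was not called in either strain (-0.20 and -0.19).

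The small rises depend on the scale between arrays. The median difference of all probe sets was 0.19 in QSi5 and 0.17 in CBA/CaH as deposited. That of all genes, at 1 probe set each as for the collagens, was smaller, as given above. Equal array medians take out the shift of all probe sets, which is more than the genes shared. With equal array medians 21 collagen genes fell and 6 rose in QSi5, where 38.4% of all genes fell and 21.4% rose. In CBA/CaH 19 fell and 4 rose on that scale, where 34.1% of all genes fell and 20.3% rose. After cyclic loess 17 fell and 4 rose in QSi5, where 24% of all genes fell and 25.2% rose. In CBA/CaH 11 fell and 4 rose, where 21% of all genes fell and 22.5% rose. Col4a3, Col2a1 and Col25a1 were called higher in both strains under both settings. Col10a1 was not called after cyclic loess, Col20a1 was not called after cyclic loess in either strain nor with equal medians in CBA/CaH, and Col26a1 was called under neither setting. Col6a5 and Col19a1 in both strains, and Col11a2, Col8a1 and Col8a2 in QSi5, were also called under neither setting. In QSi5, Col27a1 was not called with equal medians (0.37, adjusted p = 0.193) and was called after cyclic loess (1.21, adjusted p = 0.0055), while Col23a1 was called with equal medians (0.75) and not after cyclic loess (0.51, adjusted p = 0.0574).

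**Figure D3:**
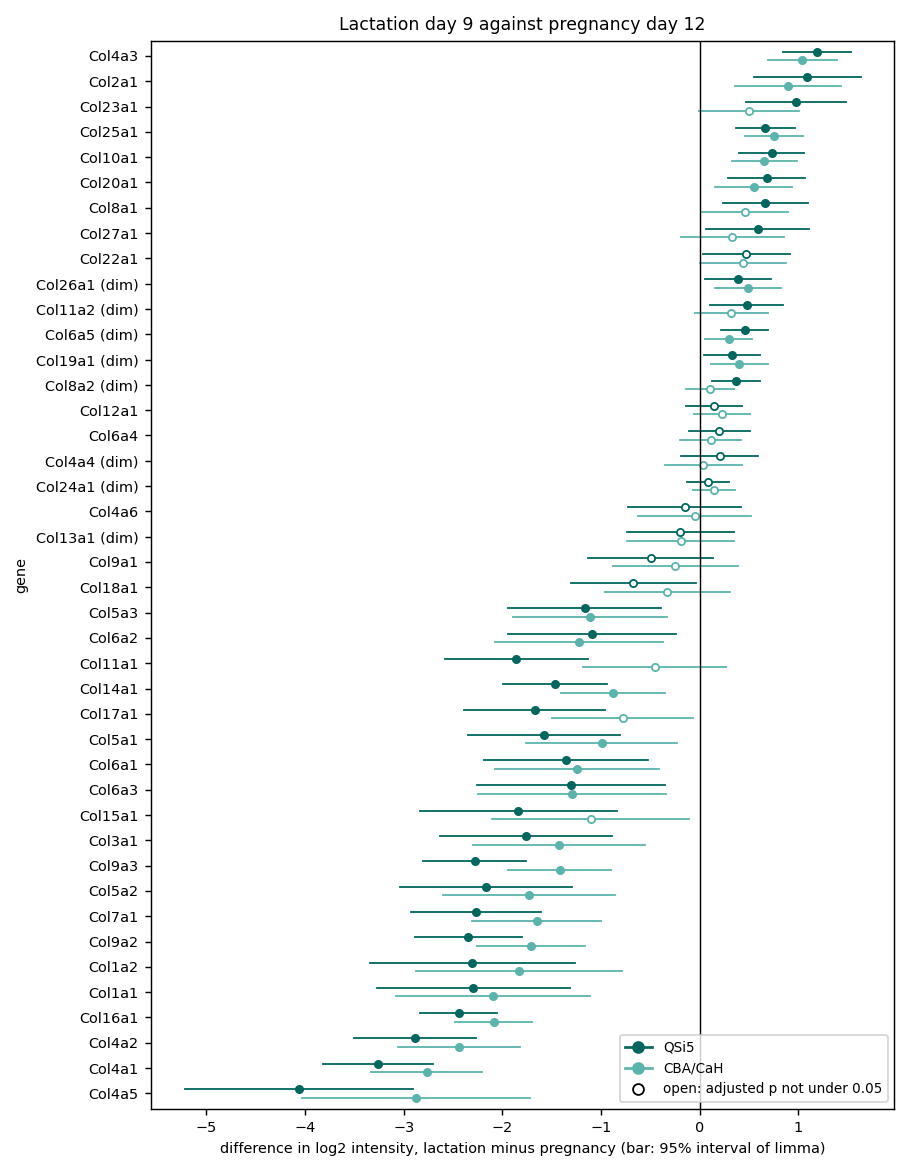
Difference in log2 intensity, lactation minus pregnancy, for the 42 collagen genes in QSi5 (dark, upper of each pair) and CBA/CaH (light) with 95% intervals; filled points passed adjusted p under 0.05. Col4a5, Col4a1 and Col4a2 lie farthest to the left in both strains, and Col4a3 and Col2a1 farthest to the right.

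The genes that fold, modify and join collagen chains moved with them in part. Of 18 measured genes for collagen modification and folding, 11 fell and 2 rose in QSi5, and 8 fell and 2 rose in CBA/CaH, to be read against the 32.7% and 29.5% of all genes that fell. Serpinh1, the collagen chaperone HSP47, averaged 8.35 ± 0.29 (SD, n = 3) at lactation and 10.74 ± 0.33 (SD, n = 5) in pregnancy in QSi5, and fell by 2.39 (adjusted p = 5.1e-07). In CBA/CaH it averaged 8.10 ± 0.12 (SD, n = 3) against 10.39 ± 0.37 (SD, n = 5), and fell by 2.29 (adjusted p = 1.19e-06). Crtap, a part of a prolyl hydroxylase complex, fell as well (-1.97 and -1.67), as did Colgalt1, which adds galactose to hydroxylysine (-2.25 and -1.52), and Plod2, a lysyl hydroxylase (-1.07 and -1.01). Plod3, of the same enzyme family as Plod2, rose by 0.71 and 0.86 (adjusted p = 0.000636 and 0.000179). P4ha1 and P4ha2 encode alternative catalytic subunits of the hydroxylase that stabilises the triple helix. P4ha1 fell in QSi5 (-0.83, adjusted p = 0.0114) and was not called in CBA/CaH (-0.51), while P4ha2 rose in CBA/CaH by 1.08 (adjusted p = 0.000326) and was not called in QSi5 (-0.06). P4hb, the other subunit, was not called (0.60 and 0.68).

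Of 12 measured genes of procollagen processing and crosslinking, 6 fell and 1 rose in each strain, where 32.7% of all genes fell and 33% rose in QSi5, and 29.5% fell and 30.4% rose in CBA/CaH. Loxl1, a lysyl oxidase, fell in QSi5 (-2.84, adjusted p = 2.36e-05) and CBA/CaH (-2.18, adjusted p = 0.000316). Tgm2, a transglutaminase, fell in both (-4.43 and -4.44, adjusted p = 4.51e-09 and 7.41e-09), as did Sparc, a collagen-binding matricellular protein (-1.73 and -1.56, adjusted p = 0.0074 and 0.0158). Lox, the founding lysyl oxidase, fell in CBA/CaH (-1.02, adjusted p = 0.0359) and was not called in QSi5 (-0.78, adjusted p = 0.0917). Among 9 collagen receptors and uptake genes, 4 fell and 2 rose in QSi5, and 2 fell and 2 rose in CBA/CaH, to be read against the same shares. Itgb1, the beta chain of the collagen-binding integrins, fell in both (-1.94, adjusted p = 0.0052, and -1.88, adjusted p = 0.0075). The collagen-binding receptor kinases were called in QSi5 in opposite directions, Ddr1 lower (-1.13, adjusted p = 0.000357) and Ddr2 higher (1.13, adjusted p = 0.0026), and neither was called in CBA/CaH (-0.26 and 0.59). Of 11 genes of TGF-beta and stromal regulation, 9 fell and 0 rose in QSi5, and 8 fell and 0 rose in CBA/CaH by limma, beside the same shares of all genes. Ccn2, a fibrogenic target of TGF-beta, was among those that fell (-3.44 in QSi5 and -2.03 in CBA/CaH).

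Markers of several cell types moved with stage beside the collagens. The 11 measured fibroblast markers, none of them a collagen, averaged -0.89 to -0.55 (mean deviation per array) in lactating QSi5, against 0.10 to 1.24 in pregnant QSi5, and -1.02 to -0.77 in lactating CBA/CaH, against -0.30 to 1.47 in pregnant CBA/CaH. In each strain 6 of them fell and 1 rose. The 10 endothelial markers averaged -0.77 to -0.71 in lactating QSi5, against 0.41 to 1.29 in pregnant QSi5, and -0.82 to -0.69 in lactating CBA/CaH, against -0.48 to 1.16 in pregnant CBA/CaH, with 7 of 10 falling in each strain. The 7 mural cell markers (4 fell in each strain), the 6 white adipocyte markers (2 fell in QSi5 and 5 in CBA/CaH), the 8 myoepithelial markers (8 and 6) and the 8 luminal epithelial markers (7 and 7) moved in the same direction, with none rising. White adipocyte markers averaged -1.20 to -0.64 in lactating QSi5, against -0.10 to 0.87 in pregnant QSi5, and -1.41 to -0.88 in lactating CBA/CaH, against -1.46 to 2.03 in pregnant CBA/CaH. Luminal markers averaged -1.37 to -0.99 in lactating QSi5, against 0.96 to 1.97 in pregnant QSi5, and -1.16 to -0.32 in lactating CBA/CaH, against 1.07 to 1.42 in pregnant CBA/CaH. The counts of called markers are to be read against all genes. There 32.7% fell and 33% rose in QSi5, and 29.5% fell and 30.4% rose in CBA/CaH. The 2 of 6 white adipocyte markers that fell in QSi5 are near that share. The part of these cell types in the collagen falls was not tested. Within pregnant CBA/CaH, array 4 had the highest fibroblast value (1.47) and array 2 the lowest (-0.30). The mean deviation of the 9 fibrillar genes that are not dim was likewise highest on array 4 (1.13) and lowest on array 2 (-0.45). Pregnant QSi5 did not match in its highest and lowest arrays, though its arrays 3 and 4 lay above its other arrays in both measures. Its fibroblast value was highest on array 4 (1.24) and lowest on array 2 (0.10). Its fibrillar mean was highest on array 3 (1.15) and lowest on array 5 (0.22).

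**Figure D4:**
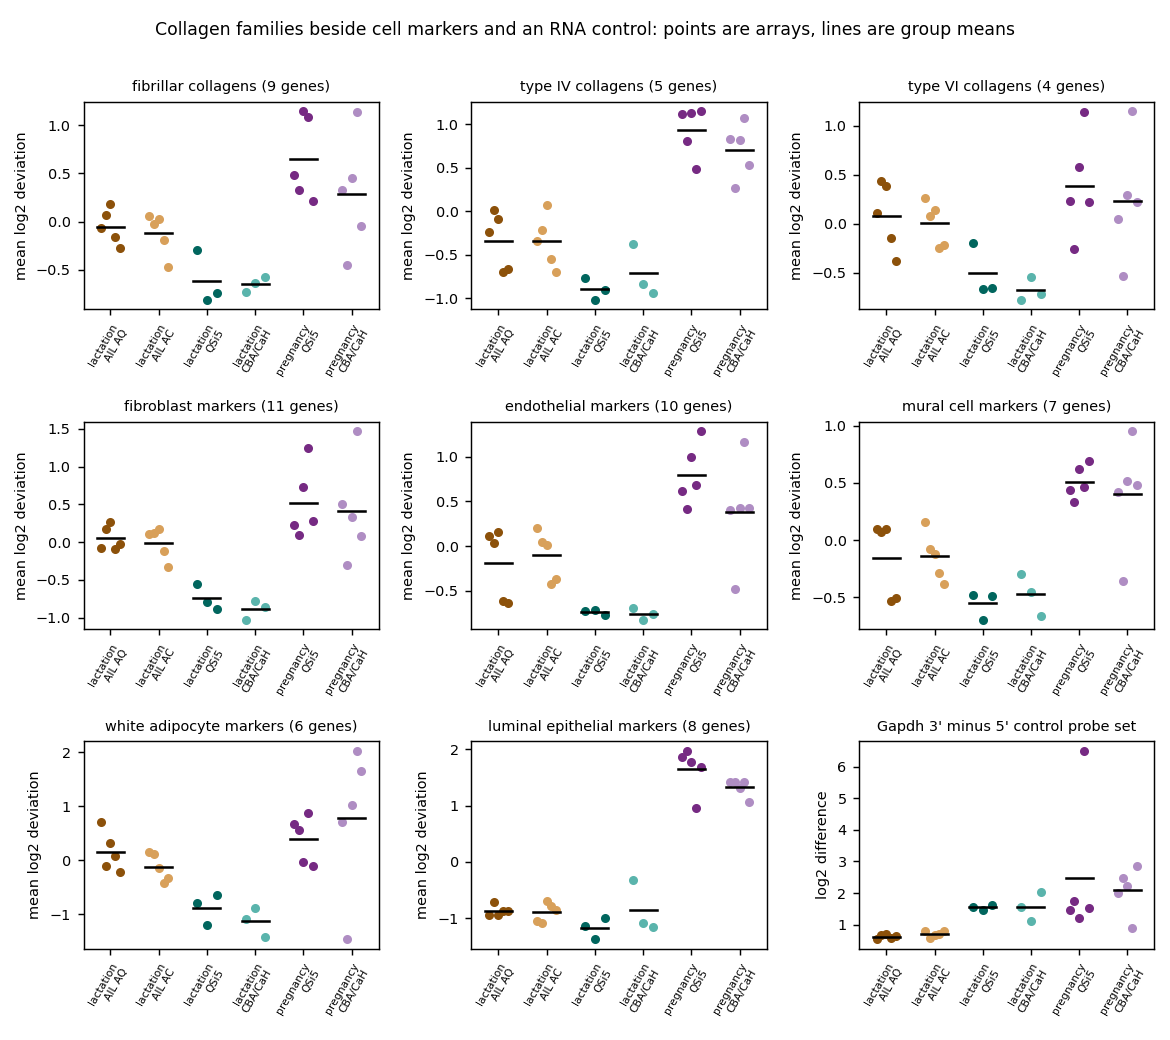
Mean deviation per array of the fibrillar, type IV and type VI genes that are not dim, of 5 cell marker lists, and the Gapdh 3' minus 5' difference, by group with lactation left of pregnancy; points are arrays and lines are group means. For the 3 collagen families and the fibroblast, endothelial, mural and adipocyte markers, the group means are lowest in the parental lactation groups, highest in the pregnancy groups and between them in the AIL, and the Gapdh value is lowest on the 10 AIL arrays. Col11a1 counts as not dim through its level in pregnant QSi5 alone.

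The second comparison set the parental strains against each other. Of the 42 genes, 1 was higher and 0 lower in QSi5 than in CBA/CaH in pregnancy, against 0.77% and 0.451% of all genes. That gene was Col11a1, with 5.36, 6.68, 6.93, 6.61 and 5.61 in QSi5, against 4.85, 4.00, 5.09, 5.27 and 4.81 in CBA/CaH. The strains did not overlap, and the difference was 1.43 (2.70-fold, SE 0.30, adjusted p = 0.0229). It was not called in a model of the groups compared alone, nor when the arrays of foreign markers or high Gapdh value were left out, nor without any 1 of the pregnancy CBA/CaH arrays 1, 2 or 5 or the pregnancy QSi5 arrays 2 or 3. Its difference ran from 1.23 to 1.66 over all alternatives. At unadjusted p under 0.05, 7 genes differed in pregnancy. No share of all genes is given at that threshold, so this count is not read as a result about collagens.

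At lactation 0 of 42 genes were higher and 0 lower in QSi5 than in CBA/CaH by limma, against 0.159% and 0.187% of all genes, and 0 had an unadjusted p under 0.05. The 3 arrays a group limit this comparison. Col4a5 had the widest difference, with 4.61, 4.66 and 4.93 in QSi5, against 7.20, 5.36 and 5.04 in CBA/CaH (-1.13, SE 0.61). The test of whether the stage difference itself differed between strains called 0 of 42 genes. Of all genes, 0.044% were called higher and 0.055% lower. At unadjusted p under 0.05 there were 2 collagen genes, again a count without a share of all genes. The fitted interaction was -1.41 for Col11a1 (SE 0.48, adjusted p = 0.728), -1.18 for Col4a5 (SE 0.77, adjusted p = 0.996) and -0.86 for Col9a3 (SE 0.35, adjusted p = 0.871). The genes called in QSi5 and not in CBA/CaH are thus not shown to differ between strains.

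The third comparison set the lactating intercross line against each lactating parental strain. Against QSi5, 13 of the 42 genes were higher and 6 lower in the AIL, where 19.4% and 18.5% of all genes were called. Against CBA/CaH, 9 were higher and 5 lower, where 18% and 16.2% of all genes were called. The median difference of the 42 genes was 0.03 and 0.02, and that of all genes -0.03 in both. The count higher than CBA/CaH is thus near the background. All 9 genes higher than CBA/CaH were also higher than QSi5 (Col1a1, Col1a2, Col3a1, Col5a2, Col4a1, Col4a2, Col6a1, Col6a2 and Col6a3), chains of types I, III, V, IV and VI, where 13.1% of all genes were higher than both parents. Both comparisons share the AIL arrays. The 9 are also among the 17 genes that fell with stage in both strains, which used the same parental lactation arrays.

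Col1a2 had 10.06, 10.32, 10.72, 9.54 and 9.89 on the AQ arrays and 10.46, 10.12, 10.28, 9.78 and 9.34 on the AC arrays, against 8.86, 8.14 and 8.33 in QSi5 and 8.42, 8.27 and 8.58 in CBA/CaH. Each AIL array was above each parental array. The difference was 1.60 from QSi5 (3.04-fold, SE 0.23, adjusted p = 4.24e-05) and 1.62 from CBA/CaH (3.08-fold, SE 0.23, adjusted p = 3.96e-05). Col1a1 read 8.58, 8.81, 9.13, 8.20 and 8.22 on the AQ arrays and 8.83, 8.58, 8.62, 8.44 and 8.03 on the AC arrays, against 7.63, 6.51 and 7.13 in QSi5 and 6.83, 7.06 and 7.03 in CBA/CaH. It was higher by 1.45 (SE 0.21, adjusted p = 6.05e-05) and 1.57 (SE 0.21, adjusted p = 2.96e-05). All 10 AIL values again lay above all 6 parental values. Col5a2 had 7.78, 8.24, 8.24, 7.88 and 7.70 on the AQ arrays and 8.09, 7.85, 8.31, 7.76 and 7.67 on the AC arrays, against 7.09, 6.31 and 6.52 in QSi5 and 6.91, 6.90 and 6.26 in CBA/CaH. It was higher without overlap by 1.31 (adjusted p = 3.64e-05) and 1.26 (adjusted p = 5.63e-05). Col3a1 averaged 11.68 ± 0.26 (SD, n = 10), against 10.86 ± 0.75 in QSi5 and 10.63 ± 0.10 in CBA/CaH (SD, n = 3 each). Its difference was 0.82 from QSi5 (adjusted p = 0.0069), with an overlap through the QSi5 array 1 at 11.58, and 1.06 from CBA/CaH (adjusted p = 0.0012). Its difference from QSi5 was 0.39 and not called when the arrays of foreign markers were left out.

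Col4a1 had 9.23, 9.68, 9.50, 8.46 and 8.43 on the AQ arrays and 9.32, 9.44, 9.36, 8.64 and 8.70 on the AC arrays, against 8.36, 7.88 and 8.23 in QSi5 and 8.44, 7.95 and 7.97 in CBA/CaH. The lowest AIL values were near the highest parental ones, and overlapped them in CBA/CaH. It was higher by 0.92 (SE 0.24, adjusted p = 0.0071) and 0.96 (SE 0.24, adjusted p = 0.0061), but quantile normalization or cyclic loess ended both calls, and the difference from QSi5 was 0.75 and not called when the arrays of foreign markers were left out. Col4a2 had 8.51, 8.84, 8.72, 7.54 and 7.55 on the AQ arrays and 8.49, 8.65, 8.66, 7.89 and 7.63 on the AC arrays, against 7.30, 6.91 and 7.22 in QSi5 and 7.24, 7.05 and 6.72 in CBA/CaH. It was higher by 1.10 (SE 0.27, adjusted p = 0.0039) and 1.25 (SE 0.27, adjusted p = 0.0018). For both genes the arrays numbered 4 and 5 of each code were the lowest 4 of the 10 AIL arrays. The same held for Col1a2, Col6a1, Col6a2 and Col6a3, among others, and the labels give no reason for a division by number. A factor for these arrays, added after seeing the data, left 21 genes called against QSi5 and 16 against CBA/CaH. The share of all genes called with that factor is not given.

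The type VI trimer was higher in the AIL by 0.83, 0.79 and 0.80 than in QSi5 (Col6a1, Col6a2 and Col6a3, adjusted p = 0.0077, 0.0033 and 0.005) and by 0.89, 1.17 and 0.90 than in CBA/CaH (adjusted p = 0.0054, 0.000156 and 0.0024). Col6a2 had 9.85, 10.12, 9.95, 9.39 and 9.17 on the AQ arrays and 10.02, 9.86, 9.87, 9.45 and 9.31 on the AC arrays, against 9.19, 8.67 and 8.86 in QSi5 and 8.34, 8.75 and 8.51 in CBA/CaH, with an overlap in QSi5 only. After quantile normalization the calls of Col6a1 against QSi5 (0.57) and CBA/CaH (0.64) and of Col6a2 against QSi5 (0.44) were lost. The call of Col6a1 against QSi5 was also lost without lactation QSi5 array 2 (0.67) and without all arrays of foreign markers or high Gapdh value (0.63). Col4a5 had 6.01, 6.34, 6.15, 5.95 and 6.02 on the AQ arrays and 5.98, 5.69, 7.13, 5.92 and 6.03 on the AC arrays, against 4.61, 4.66 and 4.93 in QSi5 and 7.20, 5.36 and 5.04 in CBA/CaH. It was higher than QSi5 by 1.39 (SE 0.32, adjusted p = 0.0031) and differed from CBA/CaH by 0.25, which was not called (95% interval -0.43 to 0.93). Col5a1, Col9a2 and Col18a1 were likewise higher than QSi5 (0.61, 0.34 and 0.39, adjusted p = 0.005, 0.0472 and 0.0096) without a call against CBA/CaH (0.31, 0.29 and 0.24). Those of Col9a2 and Col18a1 were lost when the arrays of foreign markers were left out (0.26 each).

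Other genes that had fallen with stage were not called higher in the AIL than in either parent. Col16a1 averaged 6.61 ± 0.20 (SD, n = 10) in the AIL, against 6.55 ± 0.23 in QSi5 and 6.64 ± 0.24 in CBA/CaH (SD, n = 3 each). Its differences were 0.06 (95% interval -0.23 to 0.35) and -0.02 (95% interval -0.31 to 0.27), beside its stage differences of -2.44 and -2.09. Col7a1 had 6.02, 5.72, 6.25, 5.56 and 5.59 on the AQ arrays and 6.22, 6.02, 6.07, 5.70 and 5.37 on the AC arrays, against 6.33, 6.24 and 5.88 in QSi5 and 6.42, 6.30 and 6.46 in CBA/CaH. It was lower than in CBA/CaH without overlap (-0.54, adjusted p = 0.0194) and differed from QSi5 by -0.30 (adjusted p = 0.174). The call was lost without lactation CBA/CaH array 1 (-0.53) or array 3 (-0.51). Col5a3, Col9a3 and Col14a1 were not called against either parent. Col10a1 had 4.72, 4.58, 4.58, 4.48 and 5.08 on the AQ arrays and 4.71, 4.89, 4.60, 4.89 and 4.39 on the AC arrays, against 5.10, 5.41 and 5.28 in QSi5 and 5.29, 5.39 and 5.17 in CBA/CaH. Col4a3 had 5.71, 6.07, 5.67, 5.72 and 5.83 on the AQ arrays and 5.74, 6.04, 5.86, 5.80 and 5.39 on the AC arrays, against 6.48, 6.24 and 5.98 in QSi5 and 6.05, 6.36 and 6.36 in CBA/CaH. Col10a1 did not overlap between line and parents, and Col4a3 did. Col2a1 had 5.84, 5.29, 5.68, 6.21 and 5.45 on the AQ arrays and 5.52, 5.50, 5.62, 5.75 and 5.06 on the AC arrays, against 6.68, 6.30 and 6.0 in QSi5 and 6.05, 5.97 and 6.90 in CBA/CaH, with an overlap in both. Col2a1, Col4a3 and Col10a1, which rose with stage, were lower in the AIL than in QSi5 (-0.73, -0.45 and -0.57) and than in CBA/CaH (-0.72, -0.48 and -0.59), with adjusted p of 0.0022 to 0.0148. The Col2a1 calls were lost without lactation QSi5 array 1 (-0.56 against QSi5) or lactation CBA/CaH array 3 (-0.42 against CBA/CaH). For Col4a3 the call against QSi5 was lost when the arrays of foreign markers were left out (-0.44), or with equal array medians (-0.34). Col23a1 had 4.27, 4.71, 4.78, 4.66 and 4.73 on the AQ arrays and 4.68, 4.62, 4.98, 4.90 and 4.54 on the AC arrays, against 5.70, 5.18 and 5.25 in QSi5, and was lower without overlap (-0.69, adjusted p = 0.000598). The dim Col11a2, with 4.84, 4.72, 4.81, 4.55 and 4.74 on the AQ arrays and 4.78, 5.01, 4.63, 4.53 and 4.31 on the AC arrays, against 5.10, 5.24 and 5.05 in QSi5, was also lower without overlap (-0.44), a call lost when the arrays of foreign markers were left out (-0.40) or lactation QSi5 array 2 alone (-0.38). Col27a1 was lower than in QSi5 too (-0.27). The dim Col26a1, with 3.73, 4.09, 3.50, 3.64 and 3.58 on the AQ arrays and 3.76, 3.85, 3.76, 3.42 and 3.74 on the AC arrays, against 3.98, 4.03 and 4.56 in CBA/CaH, was lower with an overlap (-0.48, adjusted p = 0.0236), a call lost without lactation CBA/CaH array 3 (-0.30).

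**Figure D5:**
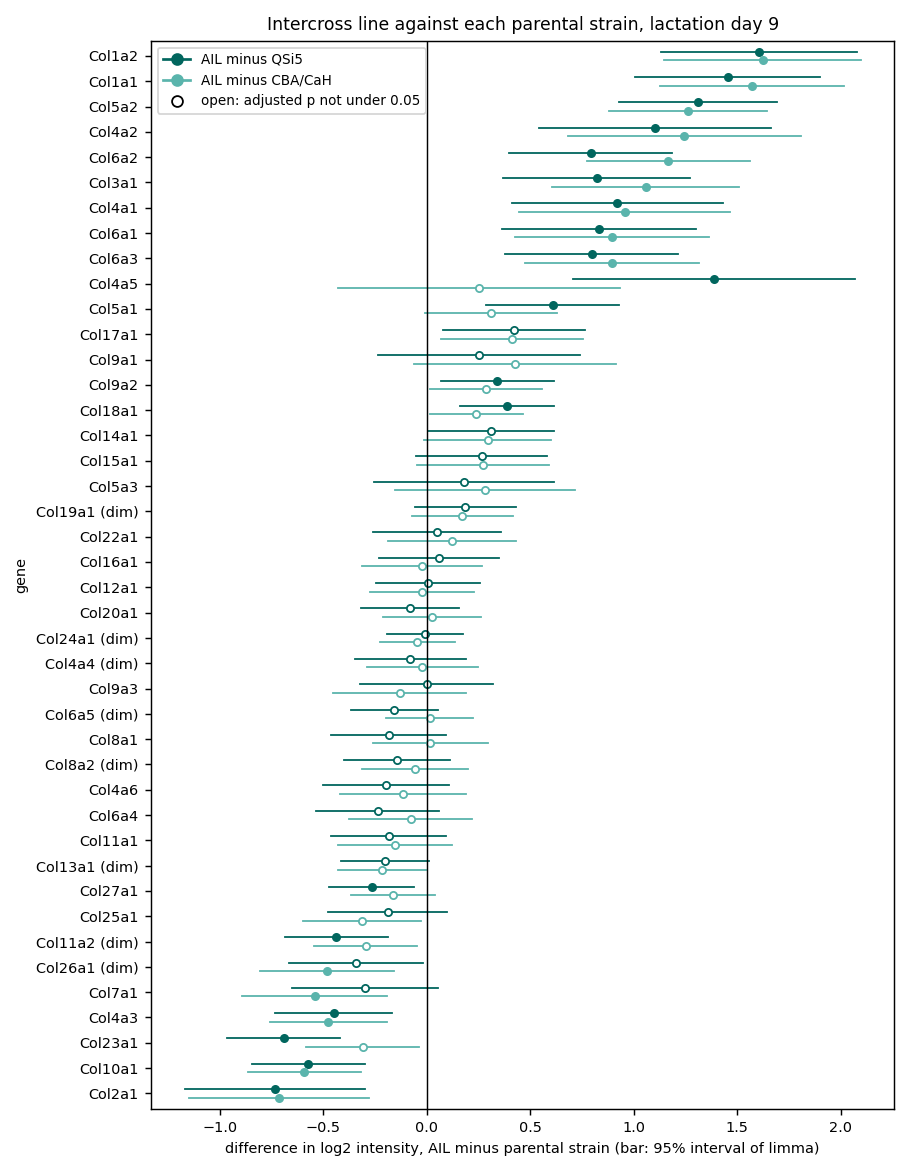
Difference in log2 intensity at lactation day 9, AIL minus QSi5 (dark, upper of each pair) and AIL minus CBA/CaH (light), with 95% intervals for the 42 collagen genes; filled points passed adjusted p under 0.05. Col1a1, Col1a2, Col3a1, Col5a2, Col6a1, Col6a2, Col6a3, Col4a1 and Col4a2 lie to the right of 0, Col16a1 lies near 0, and Col2a1, Col10a1 and Col4a3 lie to the left.

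A control value moved with the AIL contrast. The Gapdh 3' minus 5' difference, read from 2 control probe sets of the array, was 0.54 to 0.80 on the 10 AIL arrays, against 1.48 to 1.62 in lactating QSi5 and 1.12 to 2.02 in lactating CBA/CaH, with no overlap. With this value as a covariate, 0 of the 42 genes were called against QSi5 and 0 against CBA/CaH. The share of all genes called in that fit is not given. The fitted differences were then 1.96 and 1.99 for Col1a2 (adjusted p = 0.0544 and 0.0681), 1.58 and 1.70 for Col1a1 (adjusted p = 0.0982 and 0.0984) and 0.97 and 1.00 for Col4a1 (adjusted p = 0.379 and 0.417). Because every AIL array lies below every parental array in this value, line and this value cannot be told apart. Some lists of cell markers moved as well. Fibroblast markers averaged -0.33 to 0.27 on the AIL arrays, against -0.89 to -0.55 in QSi5 and -1.02 to -0.77 in CBA/CaH, with 6 of 11 higher in the AIL in each comparison and none lower. White adipocyte markers were higher in 4 of 6 against QSi5 and 5 of 6 against CBA/CaH, and endothelial markers in 4 and 5 of 10. Of all genes, 19.4% were higher and 18.5% lower in the AIL than in QSi5, and 18% and 16.2% than in CBA/CaH. White adipocyte markers averaged -0.42 to 0.70 on the AIL arrays, against -1.20 to -0.64 in QSi5 and -1.41 to -0.88 in CBA/CaH, and endothelial markers averaged -0.64 to 0.21, against -0.77 to -0.71 and -0.82 to -0.69. As group means, luminal markers were at -0.87 in AQ and -0.90 in AC, against -1.17 in QSi5 and -0.86 in CBA/CaH. Mural markers were at -0.15 and -0.14, against -0.55 and -0.47, and myoepithelial markers at -0.29 and -0.35, against -0.84 and -0.58. The part of these cell types in the collagen differences was not tested. With equal array medians, 15 genes were higher and 4 lower than QSi5, and 13 higher and 4 lower than CBA/CaH. No share of all genes is given on that scale, so these counts are not read as a result about collagens. The Col1a2 probe set of low level was called lower than in CBA/CaH (-0.36). Of the other probe sets of called genes, 9 of 15 were called in the same direction against QSi5 and 5 of 9 against CBA/CaH.

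The genes that act on collagen were compared in the same arrays. Serpinh1 was higher in the AIL by 0.46 than in QSi5 and 0.71 than in CBA/CaH (adjusted p = 0.0286 and 0.0023), Loxl1 by 1.22 and 0.83, P4ha1 by 0.66 and 0.73, Lox by 0.73 and 0.83, and Sparc by 1.24 and 0.95. Itgb1 was higher by 2.43 and 2.22 (adjusted p = 1.87e-08 and 5.19e-08). Mia3, which helps load procollagen into transport carriers, was higher by 0.88 and 1.05, and Loxl3 was lower (-0.57 and -0.65). Of the 18 modification and folding genes, 7 were higher and 0 lower against QSi5, and 5 were higher and 1 lower against CBA/CaH, to be read against the 19.4% higher and 18.5% lower of all genes against QSi5, and 18% and 16.2% against CBA/CaH.

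The last comparison set the AIL codes against each other. In AQ against AC, 0 of the 42 genes were called in either direction by limma, as were 0% of all genes in each direction. An unadjusted p under 0.05 was found for 1 collagen gene, a count given without a share of all genes. Col1a1 averaged 8.59 ± 0.40 on the AQ arrays and 8.50 ± 0.30 on the AC arrays (SD, n = 5 each), a difference of 0.09. The widest difference was that of Col14a1, at 6.21 ± 0.14 in AQ and 5.89 ± 0.25 in AC (SD, n = 5 each).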

How the data were processed

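Total RNA of 26 inguinal mammary glands was measured on Affymetrix mouse genome arrays, 1 array a sample. The values used are the log2 expression values that the authors deposited in the series matrix, made with RMA per the submitters' processing notes. The RMA version and the chip definition are not given in the sources used here. RMA normalizes arrays to each other, but array medians of the deposited log2 values still ran from 5.00 to 5.30, so other scalings were tried. Arrays have no read depth, and precision rests on how many arrays each group has.

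Of 45101 probe sets, 64 controls were left out and 45037 were tested. Names came from the platform annotation, in which 34945 probe sets had 1 symbol, 932 several and 9160 none. All 42 members matched a RefSeq gene. A gene was called dim where the highest of its 6 group means was under the median level of all probe sets.

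Differences were fitted with limma 3.58.1 in R 4.3.3 (lmFit, eBayes), with Benjamini-Hochberg adjustment over all probe sets and calls at adjusted p under 0.05. All adjusted p-values given come from these fits. Stage, strain and interaction contrasts used the 16 parental arrays, and the AIL contrasts the 16 lactation arrays. The 8 comparisons were adjusted separately. The fit was run on simulated data in which few probe sets changed and the noise of arrays was independent. Far more were called with stage here, so that run checks the code and not the error rate in these data. Figures used matplotlib 3.10.9 in Python 3.11.15.

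Values of every array were to be given for 16 collagen genes of known stromal or basement membrane role and for up to 5 called members with the highest and 5 with the lowest difference in each comparison, 28 genes in all. Other members were named after their values were seen. The members, the pathway lists and the marker lists were chosen with earlier results of these data known. Alternatives were quantile, cyclic loess and equal-median scaling, other choices of probe set, filters, models and weights, and the omission of single arrays. A Gapdh covariate and a factor for the AIL arrays 4 and 5 were added after seeing the data. Replicate numbers were not used as pairs in the main fits. Whether same-numbered AQ and AC arrays share a factor was not tested.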

Additional observations from a re-analysis of the deposited data

Results flagged for a closer look

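In 8 of 112 groups of 5 arrays tested across the named collagen genes, 1 array lay far from the others of its group by Dixon's test, and chance gives about 1 in 20. Col4a5 read 7.13 on the lactation AIL AC array 3, with the other AC arrays at 5.69 to 6.03, and 6.85 on the pregnancy QSi5 array 4, with the others at 8.92 to 9.66. Col17a1 read 7.16 on the pregnancy CBA/CaH array 4, with the others at 5.24 to 5.69. Col4a3 read 4.66 on the pregnancy QSi5 array 2, with the others at 5.09 to 5.18. Col10a1 and Col23a1 read 4.98 and 5.17 on the pregnancy QSi5 array 4, with the others at 4.40 to 4.45 and 4.03 to 4.36. Col23a1 read 4.27 on the lactation AIL AQ array 1, with the others at 4.66 to 4.78. The dim Col26a1 read 3.42 on the lactation AIL AC array 4, with the others at 3.74 to 3.85. Of these, 3 fell on the pregnancy QSi5 array 4, whose Gapdh 3' minus 5' value was 6.50.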

How the results depend on the processing

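Of 80 called differences of the named genes, 26 were called under every alternative run and 54 were lost under at least 1, and of 144 that were not called, 19 were called under at least 1. The falls of Col1a1, Col5a2, Col4a1, Col4a2, Col4a5, Col16a1, Col9a2 and Col7a1 were called in both strains under every alternative. After cyclic loess 21 collagen genes were called with stage in QSi5 and 15 in CBA/CaH. In QSi5 against CBA/CaH at pregnancy, the count was 2 with all 26 arrays in 1 model, with the mean of all probe sets of a gene, and with the Gapdh covariate, 3 with array weights, and 0 with only the groups compared or without the arrays that stood apart. In the AIL against QSi5 it was 11 with all 26 arrays in 1 model and 11 without the arrays that stood apart. With the Gapdh covariate it was 0 against QSi5 and 0 against CBA/CaH. Taking the most variable probe set turned Col12a1 in QSi5 with stage to -0.72 (adjusted p = 0.0032). The cause of these changes was not tested. For the counts under alternatives, shares of all genes are given above only for stage with equal medians and cyclic loess.

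Leaving out 1 array at a time gave 27 to 34 calls for stage in QSi5, 16 to 27 for stage in CBA/CaH (16 without the lactation array 3), and 0 to 2 for QSi5 against CBA/CaH at pregnancy. It gave 11 to 20 for the AIL against QSi5 (11 without the lactation QSi5 array 2) and 10 to 16 for the AIL against CBA/CaH. The comparisons with 0 calls stayed at 0 by limma. With the replicate number as a block the counts were 31, 23, 1, 18 and 14 in the same order. The main fits did not take the labels' numbers as pairs. Correlations of same-numbered arrays' deviations were not all above 0.1 in any pair of groups. Between AQ and AC they ran from 0.00737 to 0.316, with 3 of 5 numbers correlating best with their own. Whether same-numbered AQ and AC arrays share a factor was not tested. The parental lactation groups hold 3 arrays each, which limits every contrast that uses them.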
